A study of Mus musculus with 9 samples.

Results

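Genes of sterol and fatty acid synthesis were examined in the D3 line of mouse embryonic stem cells (mESC), which is established and was grown feeder-free, after 24 h in 1 of 3 media with 3 replicates each. The group was a list of 33 gene symbols; its rule used no measured value, but the list was drawn up with earlier results of these data known. All 33 were found among the 29069 genes of the deposited table, 32 by symbol and *Msmo1* by its Ensembl identifier ENSMUSG00000031604, since the table lists it under its older symbol *Sc4mol*. They comprise 18 enzymes of the route to cholesterol together with the sterol carrier *Stard4* (the sterol arm, 19 genes), 9 genes of fatty acid synthesis and desaturation (the fatty acid arm) and 5 regulators. Ground-state medium (GS) was serum-free NDiff N2B27 with the MEK inhibitor PD0325901 at 1 μM, the GSK-3 inhibitor CHIR99021 at 3 μM and leukaemia inhibitory factor (LIF) at 20 ng/mL. Differentiation medium (DM) was DMEM with 10% fetal bovine serum, no inhibitor and no LIF. The NO medium was DM with the nitric oxide donor DETA/NO at 250 μM. DM and NO therefore differed by the donor alone, whereas GS differed from both also in basal medium, serum, inhibitors and LIF, and the parts of these in any difference from GS cannot be told apart. Each sample came from 1 dish of cells at passages given as a range, and the labels do not say whether dishes of the same medium were independent cultures, so p-values measure the spread between these samples only.

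Cells make cholesterol from acetyl-CoA through mevalonate, farnesyl diphosphate, squalene and lanosterol, and they make fatty acids from cytosolic acetyl-CoA by carboxylation, chain building, elongation and desaturation. Both routes are governed by the sterol regulatory element-binding proteins (SREBPs), encoded by *Srebf1* and *Srebf2*, which lie in the endoplasmic reticulum bound to Scap. When membrane sterol is low, Scap escorts them to the Golgi, where cleavage frees the part that enters the nucleus; when sterol is high, the Insig proteins hold Scap back. The transcripts of many enzymes, and of *Insig1* itself, are known SREBP targets, and at many of these promoters SREBPs bind next to the CCAAT-binding factor NF-Y.

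Promoter sequence is shown for members whose values are given below, since regulation of this pathway is known to act through short elements close to the start site. RefSeq promoters on GRCm38.p6 (250 bases before to 50 after each start site) were given for 26 of the 33 members in 34 entries. The authors aligned to GRCm38, with no patch level stated. *Fdps*, *Fdft1*, *Sqle*, *Stard4*, *Scd1*, *Scd2* and *Fads1* had no entry. Each line below holds the 150 bases before the start site, 5′ to 3′ on the strand of the gene, and the first entry was taken where a gene had several. Capitals mark exact matches, on either strand, to the sterol regulatory element TCACNCCAC, the E-box CACGTG or the CCAAT box, which reads ATTGG on the other strand.
*Hmgcs1*, chr13:119690201-119690350, plus strand: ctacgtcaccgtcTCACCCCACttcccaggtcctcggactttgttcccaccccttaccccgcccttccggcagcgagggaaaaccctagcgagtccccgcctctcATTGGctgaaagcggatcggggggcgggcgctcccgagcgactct
*Mvd*, chr8:122443423-122443572, minus strand: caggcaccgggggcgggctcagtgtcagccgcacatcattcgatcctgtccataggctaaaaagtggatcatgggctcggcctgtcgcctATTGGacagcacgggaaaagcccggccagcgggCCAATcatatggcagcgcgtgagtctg
*Lss*, chr10:76531455-76531604, plus strand: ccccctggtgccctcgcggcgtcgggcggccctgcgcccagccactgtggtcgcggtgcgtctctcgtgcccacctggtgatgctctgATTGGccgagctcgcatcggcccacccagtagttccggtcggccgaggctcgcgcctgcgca
*Cyp51*, chr5:4104698-4104847, minus strand: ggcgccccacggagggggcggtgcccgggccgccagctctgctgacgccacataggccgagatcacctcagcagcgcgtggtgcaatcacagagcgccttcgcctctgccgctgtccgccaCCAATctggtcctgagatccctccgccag
*Sc5d*, chr9:42264301-42264450, minus strand: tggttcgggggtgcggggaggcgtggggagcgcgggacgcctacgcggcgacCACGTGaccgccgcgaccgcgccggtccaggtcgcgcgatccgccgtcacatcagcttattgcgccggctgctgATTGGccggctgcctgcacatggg
*Dhcr7*, chr7:143823017-143823166, plus strand: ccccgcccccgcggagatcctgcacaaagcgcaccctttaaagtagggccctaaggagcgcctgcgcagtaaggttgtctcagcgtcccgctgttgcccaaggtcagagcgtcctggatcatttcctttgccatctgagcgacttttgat
*Fasn*, chr11:120824548-120824697, minus strand: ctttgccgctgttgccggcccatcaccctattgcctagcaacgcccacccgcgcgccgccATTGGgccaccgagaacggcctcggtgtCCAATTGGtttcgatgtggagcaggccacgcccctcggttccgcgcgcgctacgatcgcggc
*Scap*, chr9:110333138-110333287, plus strand: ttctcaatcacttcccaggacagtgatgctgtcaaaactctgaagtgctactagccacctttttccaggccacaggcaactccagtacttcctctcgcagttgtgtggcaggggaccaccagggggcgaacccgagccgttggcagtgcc
*Hmgcs1* carried the only match to the sterol regulatory element among the 26 members, 137 bases before its start site, and a CCAAT box between that match and the start. *Mvd*, *Lss*, *Cyp51* and *Sc5d* carried a CCAAT box without a match to the sterol element, and *Sc5d* also an E-box. In *Fasn* a match on the plus strand and another on the minus strand overlapped within 1 run of capitals. No match lay in the lines of *Dhcr7* and *Scap*, although another entry of *Dhcr7* held CCAAT boxes.

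CCAAT boxes were found on either strand in the 300 bases of 14 of the 15 sterol-arm genes with an entry (93.3%), *Acat2* being the exception. The share was 42.5% of the 11522 tested genes with an entry and 41.1% of all 27025 genes with one. Within the last 100 bases before a start site, 13 of the 15 sterol-arm genes held a CCAAT box, against 25.9% of tested genes. Among the 6 fatty acid genes with an entry, *Acly* and *Fasn* held one in the 300 bases, and among the regulators *Srebf1*, *Srebf2*, *Insig1* and *Insig2* did. An E-box was present in *Hsd17b7*, *Sc5d*, *Dhcr7*, *Insig1* and *Scap*, against 11.2% of tested genes, and the strict sterol element in 1.49% of tested genes. These matches describe the letters of the window and are not measured binding sites.

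**Figure D1:**
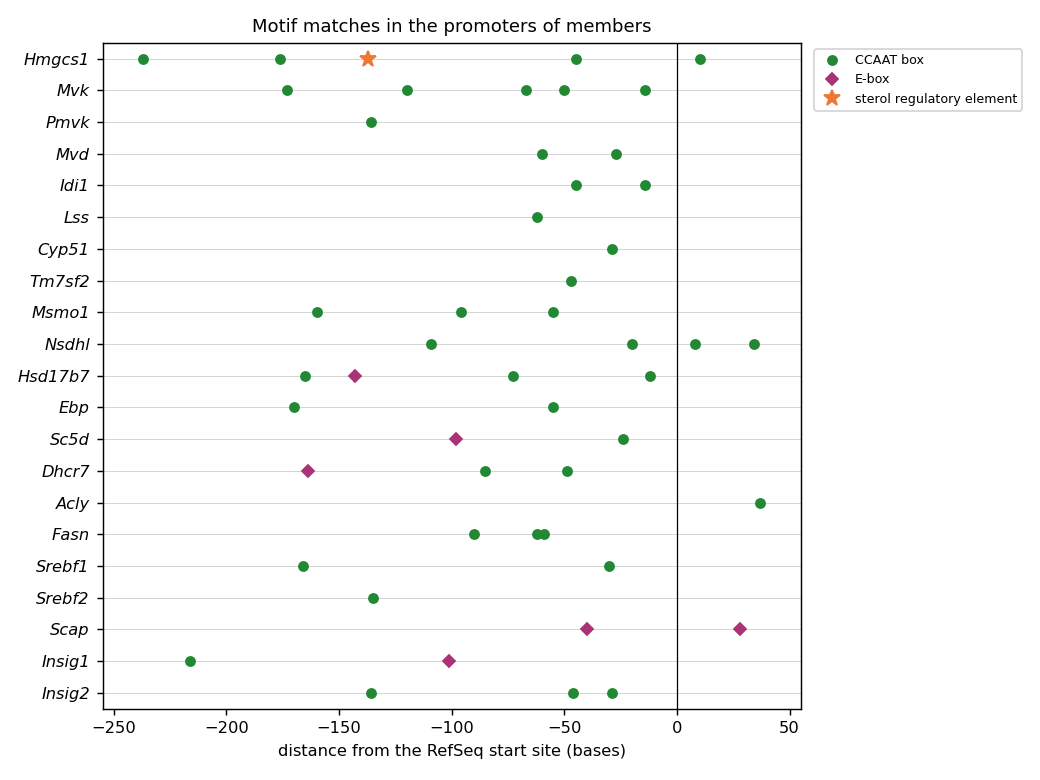
Matches to 3 motifs in the promoters of the members that held any, placed by distance in bases from the RefSeq start site (horizontal axis); entries of a gene are overlaid. CCAAT boxes of the sterol-arm genes lie mostly within 100 bases before the start (13 of 15 genes), and the only sterol regulatory element is in *Hmgcs1*.

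Values are normalised counts, that is reads per gene scaled by the authors for the size of each library and then rounded. The estimated depth was 14308617 to 27064952 assigned reads per sample, and 1 read was worth 0.701 to 1.32 normalised counts, while the lowest value of any member in any sample was 121 (*Idi1* in NO replicate 2). The 8 mESC markers (*Pou5f1*, *Nanog* and others) summed to 79379 to 83600 in GS, 77063 to 87817 in DM and 47525 to 78886 in NO. NO replicate 2 stood apart: its first principal component was 131.2, against 67.1 and 25.9 in NO replicates 3 and 1, and it had the lowest mESC marker sum and the highest sum of 8 extraembryonic endoderm markers (605, with *Gata6* at 234 and *Foxa2* at 1). That endoderm list summed to 214 to 605 in NO, 117 to 188 in DM and 121 to 177 in GS. Fibroblast markers summed to 136 to 158 in GS, 261 to 276 in DM and 243 to 466 in NO, mostly *Thy1* and *Pdgfra*. *Col1a1* had 39, 88 and 39 in NO, against 13 to 20 in DM and 13 to 21 in GS. Across all samples *Col1a2* lay between 7 and 24 and *Col3a1* between 2 and 19, with *Postn*, *Lum* and *Dcn* between 0 and 6.

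Within the group, levels compared per kilobase of exon differed widely. In GS the highest were *Scd2* with 4309 normalised counts per kilobase, *Acly*, which makes cytosolic acetyl-CoA from citrate, with 3359, and *Fasn*, the fatty acid synthase, with 1961. *Hmgcs1*, the HMG-CoA synthase, led the sterol arm with 1123. The lowest were *Tm7sf2* (71.5) and *Hsd17b7* (76.0), both enzymes that act after lanosterol. In NO the order at the top changed: *Acly* stood at 2089 and *Scd2* at 1327 per kilobase.

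The comparison of DM with GS asked what 24 h in serum without inhibitors and LIF did to these genes. With limma on log2(normalised count + 1), none of the 33 members passed an adjusted p-value of 0.05 in either direction, and 4 had an unadjusted p under 0.05, as did 19.9% of all tested genes. Among all 18156 tested genes 4.37% were called higher and 2.32% lower in DM. The median log2 fold change was -0.02 over the sterol arm, -0.15 over the fatty acid arm and -0.04 over the regulators, against a median near 0 (-0.001) over all tested genes.

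In the sterol arm the log2 fold changes of DM against GS lay between -0.62 and 0.28. *Sqle*, the squalene epoxidase, gave 4667, 4409 and 5099 in GS against 5172, 4178 and 4708 in DM, and the 95% interval of its log2 fold change was -0.49 to 0.46. The lowest value belonged to *Idi1*, the isopentenyl diphosphate isomerase, with 402, 304 and 525 in GS and 260, 236 and 286 in DM (-0.62 ± 0.28 (SE), interval -1.23 to -0.02, adjusted p = 0.239). *Sc5d*, a late desaturase of the sterol ring, had 609, 529 and 660 in GS and 424, 410 and 485 in DM (-0.44 ± 0.17, interval -0.82 to -0.07, adjusted p = 0.169). For these 2 genes all DM values lay below all GS values, but neither difference passed the test, and the intervals leave room for changes of more than 1.5-fold.

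In the fatty acid arm the largest shortfall in DM was that of *Scd2*, a stearoyl-CoA desaturase, whose normalised counts were 25636, 22606 and 22387 in GS against 16829, 15543 and 16581 in DM. The groups did not overlap, and the log2 fold change was -0.53 ± 0.19 (interval -0.95 to -0.10, adjusted p = 0.148). *Elovl6*, which elongates palmitate, had 5754, 6283 and 6340 in GS and 4890, 5232 and 3877 in DM (-0.40 ± 0.14, adjusted p = 0.115). Across the 33 members, 7 had all DM values below all GS values (*Idi1*, *Hsd17b7*, *Sc5d*, *Elovl6*, *Scd1*, *Scd2* and *Lpin1*) and 2 had them above (*Mvd* and *Lss*), where 13.5% and 16.2% of all tested genes did so. With the GS and DM samples fitted alone, *Scd2* and *Lpin1* were called lower in DM.

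**Figure D2:**
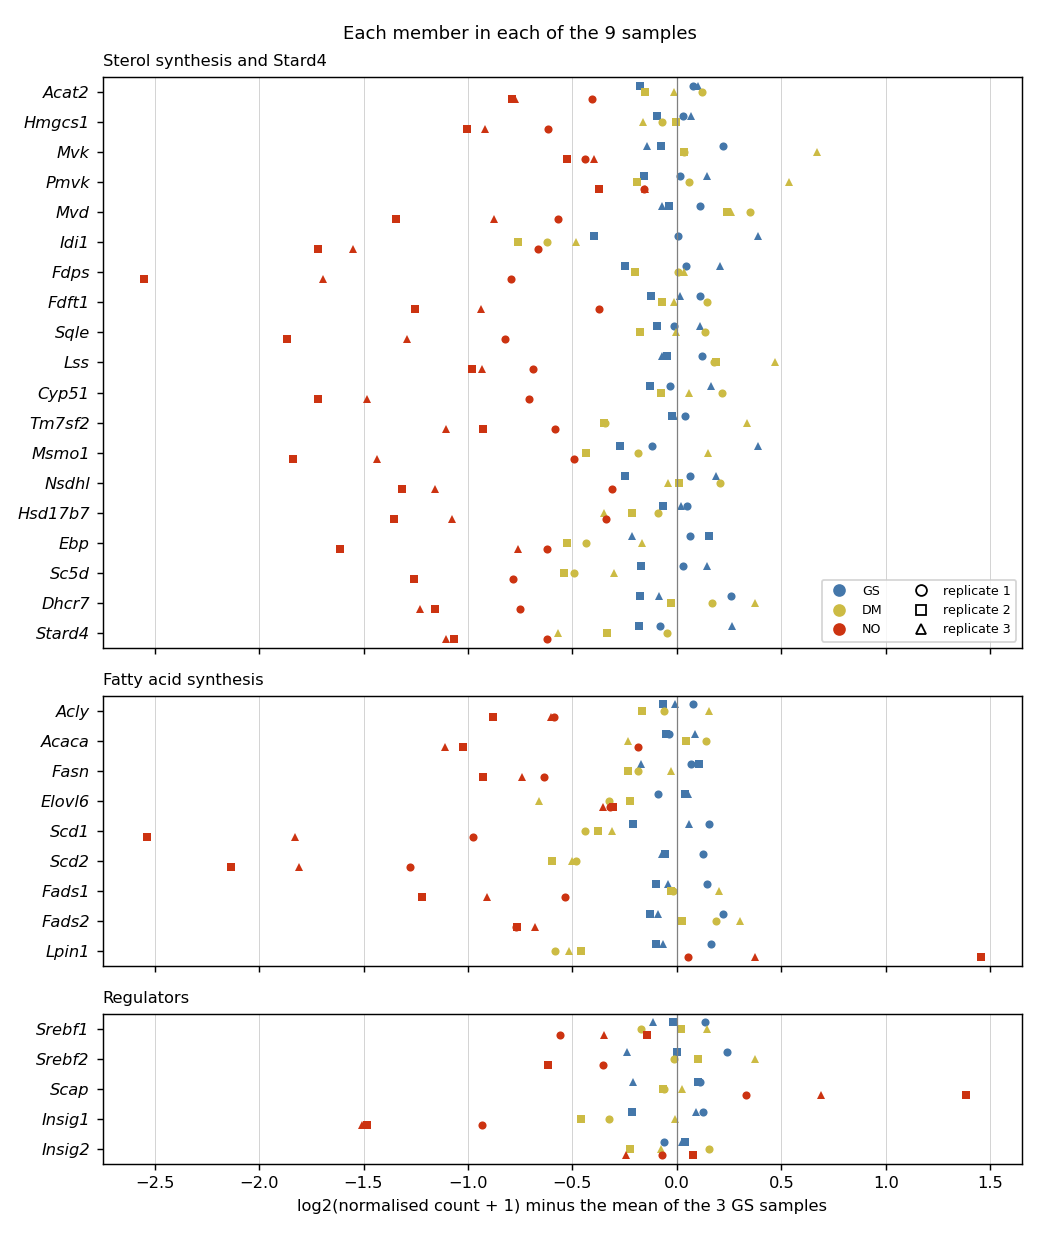
Each of the 33 members in each of the 9 samples, as log2(normalised count + 1) minus the mean of the 3 GS samples (horizontal axis); colour gives the medium and shape the replicate number. In the sterol and fatty acid panels most NO points lie left of the GS and DM points, and NO replicate 1 (circles) mostly lies nearest to GS. NO points of *Pmvk* overlap both other media, and those of *Idi1*, *Hsd17b7*, *Acaca* and *Elovl6* overlap DM. Those of *Lpin1* lie right of DM and overlap GS.

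The comparison of NO with DM asked what the nitric oxide donor changed at equal serum. Sterol synthesis transcripts were lower in NO along nearly the whole route: 15 of the 19 sterol-arm genes fell, none rose, and all 19 had a negative log2 fold change. Of the 9 fatty acid genes 7 fell and 1, *Lpin1*, rose. Among all tested genes 5.24% were called lower and 9.01% higher in NO. The median log2 fold change was -0.77 over the sterol arm and -0.76 over the fatty acid arm, against 0.001 over all tested genes. At least 2-fold lower were 7 sterol-arm genes (*Mvd*, *Fdps*, *Sqle*, *Lss*, *Cyp51*, *Msmo1* and *Dhcr7*), 2 fatty acid genes (*Scd1* and *Scd2*) and *Insig1*, where 1.77% of tested genes were, and *Lpin1* was at least 2-fold higher, as were 6.78% of tested genes, though not without NO replicate 2 (log2 fold change 0.73). RNA of whole dishes was measured, so fewer cells with high levels and less RNA per cell cannot be told apart.

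In the early, mevalonate part of the route, *Hmgcs1* had 4911, 5129 and 4606 normalised counts in DM and 3355, 2563 and 2726 in NO. All NO values lay below all DM values, at 58.7% of the DM level in the fit (log2 fold change -0.77 ± 0.13, adjusted p = 0.00597). *Mvd*, the mevalonate diphosphate decarboxylase, had 1538, 1424 and 1442 in DM and 812, 474 and 657 in NO. It fell to 43.1% of DM (-1.21 ± 0.18, adjusted p = 0.00291). *Acat2*, which joins acetyl-CoA units at the start, had means of 2093 ± 198 in DM and 1347 ± 211 in NO (SD, n = 3) and also fell (-0.64 ± 0.15, adjusted p = 0.018). However, 39.1% of the 50-base stretches of *Acat2* recur in other genes, most often in *Acat3*, so its level is less certain. *Mvk*, the mevalonate kinase, fell from 1024 ± 278 to 615.7 ± 28.4 (adjusted p = 0.0282). The next kinase, *Pmvk*, differed least: 1075, 905 and 1497 in DM and 924, 797 and 930 in NO, groups that overlapped (-0.36 ± 0.18, interval -0.76 to 0.03, adjusted p = 0.195). *Idi1* had 260, 236 and 286 in DM and 252, 121 and 136 in NO (-0.69 ± 0.28, interval -1.29 to -0.08, adjusted p = 0.114). It therefore did not pass the test against DM, and its replicate 1 was close to the DM values. For *Idi1*, 17.7% of the 50-base stretches recur in other genes. Exons of *Hmgcs1* and *Idi1* each overlap a gene on the opposite strand, over 12.1% and 9.2% of their length.

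Between farnesyl diphosphate and lanosterol, *Fdps*, the farnesyl diphosphate synthase, showed the lowest log2 fold change of the arm. It had 2677, 2319 and 2735 in DM and 1539, 455 and 824 in NO (-1.63 ± 0.33, adjusted p = 0.0104), with a wide spread among the NO samples. *Sqle* had 5172, 4178 and 4708 in DM and 2670, 1293 and 1923 in NO (-1.31 ± 0.22, adjusted p = 0.00466). *Lss*, the lanosterol synthase, had 2357, 2369 and 2881 in DM and 1290, 1054 and 1091 in NO (-1.15 ± 0.14, adjusted p = 0.00179), the smallest adjusted p of the arm. *Fdft1*, the squalene synthase, fell from 3032 ± 237 to 1704 ± 542 (adjusted p = 0.015). Exons of *Fdps* overlap those of another annotated gene on the same strand over 26.7% of their length and share 15.5% of their 50-base stretches with other genes, and for *Fdft1* the overlap is 18.3% (with *Ctsb*, opposite strand) and the shared part 9.38%. The use of strand in counting is not given in the sources used here, so the levels of both are less certain than that of *Sqle*, whose exons overlap no other gene.

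After lanosterol, *Cyp51*, the lanosterol 14-alpha demethylase, had 2290, 1871 and 2052 in DM and 1206, 599 and 704 in NO, or 38.7% of DM (-1.37 ± 0.22, adjusted p = 0.00434). *Dhcr7*, the last reductase before cholesterol, had 2034, 1775 and 2344 in DM and 1075, 810 and 770 in NO (-1.22 ± 0.17, adjusted p = 0.00286). *Msmo1*, *Nsdhl*, *Sc5d* and *Tm7sf2* fell as well, with log2 fold changes of -1.10, -0.99, -0.66 and -0.75. The call of *Tm7sf2* rested on an adjusted p of 0.0387 and was lost when the replicate number was fitted as a block (replicate block, adjusted p = 0.0568), which left 14 called sterol-arm genes. Over 12.1% of their length, the exons of *Tm7sf2* overlap *Vps51* on the same strand. *Hsd17b7* (-0.71 ± 0.23, interval -1.21 to -0.21, adjusted p = 0.0596) and *Ebp* (-0.62 ± 0.24, interval -1.15 to -0.10, adjusted p = 0.0999) did not pass. *Stard4*, which carries sterol between membranes, fell from 1684 ± 307 to 1099 ± 215 (-0.62 ± 0.18, adjusted p = 0.0467). In 16 of the 19 sterol-arm genes all NO values lay below all DM values, as they did for 15.3% of tested genes, the exceptions being *Pmvk*, *Idi1* and *Hsd17b7*.

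**Figure D3:**
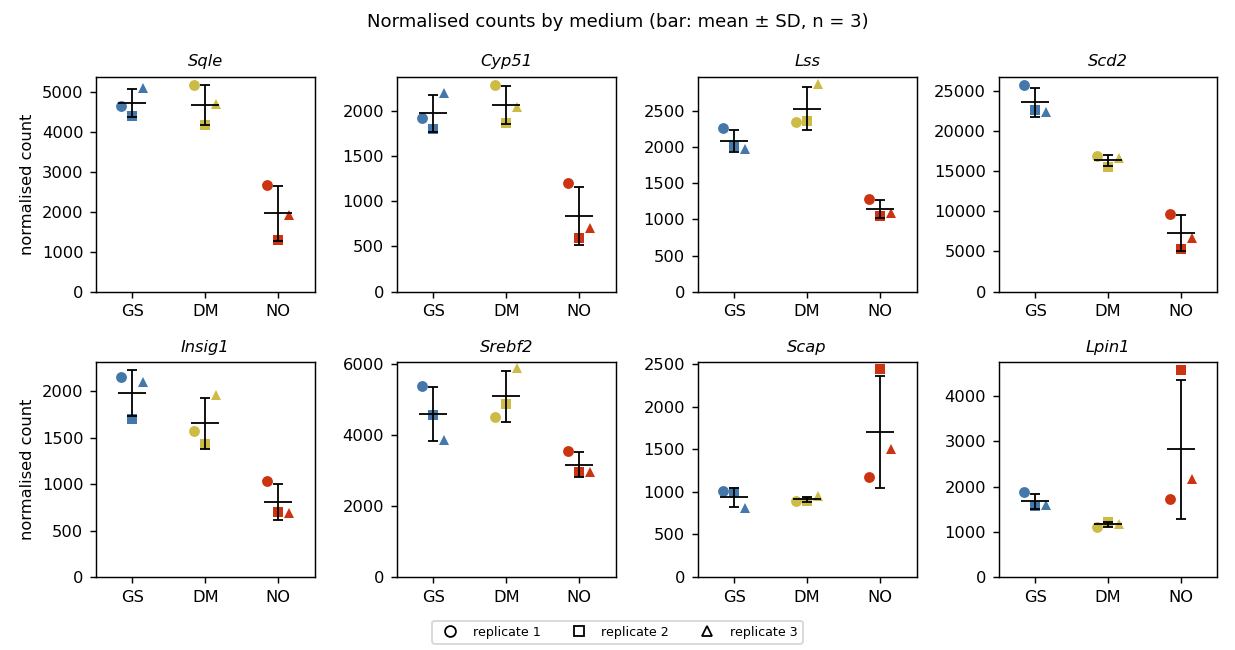
Normalised counts of 8 members by medium; each point is a sample, shapes give the replicate number, and the bar is the mean ± SD of 3 samples. *Sqle*, *Cyp51*, *Lss*, *Scd2*, *Insig1* and *Srebf2* are lower in NO than in DM in all replicates, while *Scap* and *Lpin1* are higher, with NO replicate 2 at 2436 and 4572.

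Among fatty acid genes, the desaturases had the lowest log2 fold changes of NO against DM. *Scd2* had 9693, 5345 and 6710 normalised counts in NO, all below the lowest DM value of 15543 (-1.21 ± 0.19, adjusted p = 0.00415). *Scd1*, the other stearoyl-CoA desaturase measured, had 3742, 3913 and 4095 in DM and 2584, 874 and 1431 in NO (-1.40 ± 0.29, adjusted p = 0.0119). Exons of the pair share up to 4.56% of their 50-base stretches, and reads that fit both genes did not enter the counts. *Fads2*, the delta-6 desaturase of polyunsaturated fatty acids, had 1581, 1411 and 1714 in DM and 813, 818 and 867 in NO (-0.91 ± 0.14, adjusted p = 0.00336), with little spread in NO. *Fads1*, the delta-5 desaturase, had 2069, 2054 and 2405 in DM and 1445, 897 and 1114 in NO (-0.94 ± 0.17, adjusted p = 0.00685).

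*Acly*, *Fasn* and *Acaca* fell less than the desaturases against DM by point estimate, and this contrast was not tested. Against GS it did not hold for *Fads2* (-0.74), beside -0.77 for both *Fasn* and *Acaca*. *Acly* had 16971, 15802 and 19725 in DM and 11797, 9624 and 11666 in NO (-0.67 ± 0.15, adjusted p = 0.0148). *Fasn* had 18813, 18193 and 20990 in DM and 13778, 11252 and 12807 in NO (-0.62 ± 0.15, adjusted p = 0.02). *Acaca*, the acetyl-CoA carboxylase, had 2695, 2524 and 2083 in DM and 2155, 1204 and 1133 in NO, groups that overlapped (-0.76 ± 0.22, adjusted p = 0.039), and 30.4% of its 50-base stretches recur in other genes. *Elovl6* was the only fatty acid gene with no called difference from either GS or DM: it had 4903, 4948 and 4782 in NO and its log2 fold change against DM was 0.08 (interval -0.22 to 0.38, adjusted p = 0.748).

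*Lpin1* encodes lipin 1, a phosphatidate phosphatase of glycerolipid synthesis that also acts as a nuclear cofactor. It went the other way, with 1112, 1215 and 1165 in DM and 1729, 4572 and 2165 in NO (1.15 ± 0.28, adjusted p = 0.021). All NO values lay above all DM values, as for 18.1% of tested genes, and NO replicate 2 was the highest by far. Without DM replicate 1, 2 or 3 the call of *Lpin1* was lost (log2 fold change 1.11, 1.18 and 1.15, adjusted p = 0.0651, 0.0567 and 0.054). Without NO replicate 2 it stayed called at 0.73 (adjusted p = 0.0111). For 6 of the 9 fatty acid genes all NO values lay below those of DM, as they did for 15.3% of tested genes.

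Of the 5 regulators, 2 fell and 1 rose, against 5.24% and 9.01% of tested genes. *Srebf2*, which encodes the SREBP that mainly drives sterol genes, had 4508, 4879 and 5891 in DM and 3561, 2971 and 2968 in NO, and it fell (-0.68 ± 0.16, adjusted p = 0.0189). *Srebf1*, whose protein is best known for driving fatty acid genes, had 2894, 3302 and 3600 in DM and 2212, 2951 and 2554 in NO, groups that overlapped (-0.35 ± 0.15, interval -0.67 to -0.03, adjusted p = 0.128). *Insig1* had 1574, 1433 and 1959 in DM and 1032, 705 and 694 in NO and fell to 48.6% of DM (-1.04 ± 0.19, adjusted p = 0.0063). *Insig2*, which encodes the other Insig protein, had 510, 393 and 435 in DM and 437, 484 and 387 in NO (-0.03 ± 0.15, interval -0.36 to 0.30, adjusted p = 0.915). *Scap* rose, with 894, 889 and 948 in DM and 1172, 2436 and 1504 in NO (0.84 ± 0.22, adjusted p = 0.0299). All NO values of *Scap* lay above all DM values. Exons of *Scap* overlap a gene on the opposite strand over 13.2% of their length. The call of *Scap* against DM was lost without NO replicate 2 (log2 fold change 0.55, adjusted p = 0.0552), NO replicate 3 or any DM replicate (adjusted p up to 0.0834), and that of *Srebf2* without NO replicate 3 or DM replicate 2 or 3 (up to 0.0666).

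The comparison of NO with GS contrasts the donor in serum with ground-state medium and shares its NO samples with the comparison just given, so it is not independent of it. In the sterol arm 17 of the 19 genes were lower in NO, all but *Mvk* and *Pmvk*, and none was higher. In the fatty acid arm 7 of 9 were lower, all but *Elovl6* and *Lpin1*. Among all tested genes 6.64% were called lower and 13.4% higher. The median log2 fold change was -0.93 over the sterol arm, -0.77 over the fatty acid arm and -0.016 over all tested genes. All NO values lay below all GS values for 18 of the 19 sterol-arm genes and 8 of the 9 fatty acid genes, where 18.3% of tested genes did so, and above them for *Scap*, where 20.9% did so.

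By adjusted p, the leading sterol-arm genes against GS were *Sc5d*, *Lss*, *Hmgcs1*, *Sqle* and *Dhcr7*. *Sc5d* had 609, 529 and 660 in GS and 346, 249 and 249 in NO, 46.6% of GS (-1.10 ± 0.17, adjusted p = 0.00168). *Lss* had 2262, 2016 and 1981 in GS, above all its NO values (-0.87 ± 0.14, adjusted p = 0.0018), and *Hmgcs1* had 5255, 4828 and 5391 (-0.85 ± 0.13, adjusted p = 0.00181). The GS values of *Sqle* and *Dhcr7* also lay wholly above those in NO, with 2165, 1602 and 1705 in GS for *Dhcr7*. The log2 fold change of *Sqle* was -1.33 ± 0.22 (adjusted p = 0.00212) and that of *Dhcr7* -1.05 ± 0.17 (adjusted p = 0.00226). *Fdps* fell to 31.2% of GS, *Idi1* to 40.3%, *Cyp51* to 40.5% and *Msmo1* to 41.9%. *Idi1*, *Hsd17b7* and *Ebp* were called against GS and not against DM. Their means in DM (260.7, 334 and 468.3) lay below those in GS (410.3, 387.7 and 608), although none of these differences between DM and GS passed the test. At least 2-fold lower than in GS were 7 sterol-arm genes, where 1.64% of tested genes were.

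In the fatty acid arm *Scd1* fell to 29.1% of GS (-1.78 ± 0.29, adjusted p = 0.0022) from 5645, 4390 and 5291 normalised counts. *Scd2* fell to 29.9% (-1.74 ± 0.19, adjusted p = 0.00049), the smallest adjusted p among the members. *Fads2* had 1617, 1272 and 1303 in GS (-0.74 ± 0.14, adjusted p = 0.00408), *Fasn* 22404, 23001 and 18980 (-0.77 ± 0.15, adjusted p = 0.00473) and *Fads1* 2312, 1953 and 2031 (-0.89 ± 0.17, adjusted p = 0.00474). For all 3 every GS value lay above every NO value. *Lpin1* had 1871, 1559 and 1593 in GS, which overlapped NO (0.63 ± 0.28, interval 0.02 to 1.23, adjusted p = 0.131).

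Of the regulators, *Insig1* had 2151, 1698 and 2100 in GS and fell to 40.4% of that level (-1.31 ± 0.19, adjusted p = 0.00111). *Srebf2* had 5370, 4550 and 3861 in GS and fell by 0.53 ± 0.16 on the log2 scale (adjusted p = 0.0374). *Scap* had 1005, 999 and 807 and rose by 0.80 ± 0.22 (adjusted p = 0.0267). *Srebf1* (3571, 3210 and 3013 in GS, -0.35 ± 0.15, interval -0.67 to -0.03, adjusted p = 0.112) and *Insig2* (439, 472 and 466, -0.08 ± 0.15, interval -0.41 to 0.25, adjusted p = 0.753) did not pass. In DM against GS, none of the 5 moved beyond the spread, with log2 fold changes from -0.27 for *Insig1* to 0.15 for *Srebf2*. Against GS the call of *Srebf2* was lost without GS replicate 1 or 2, DM replicate 2 or NO replicate 2 or 3 (adjusted p up to 0.144). It was also lost with all samples under equal totals (-0.42, adjusted p = 0.0988), quantile normalisation (-0.39, adjusted p = 0.126), moderation without a trend (0.0821), no minimum mean (0.0584) and the replicate block (0.0541), so that it stood in 9 of 19 alternatives. The call of *Scap* against GS was lost without any GS replicate or NO replicate 3 (adjusted p up to 0.105), and without NO replicate 2 its log2 fold change was 0.51 (adjusted p = 0.0491).

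**Figure D4:**
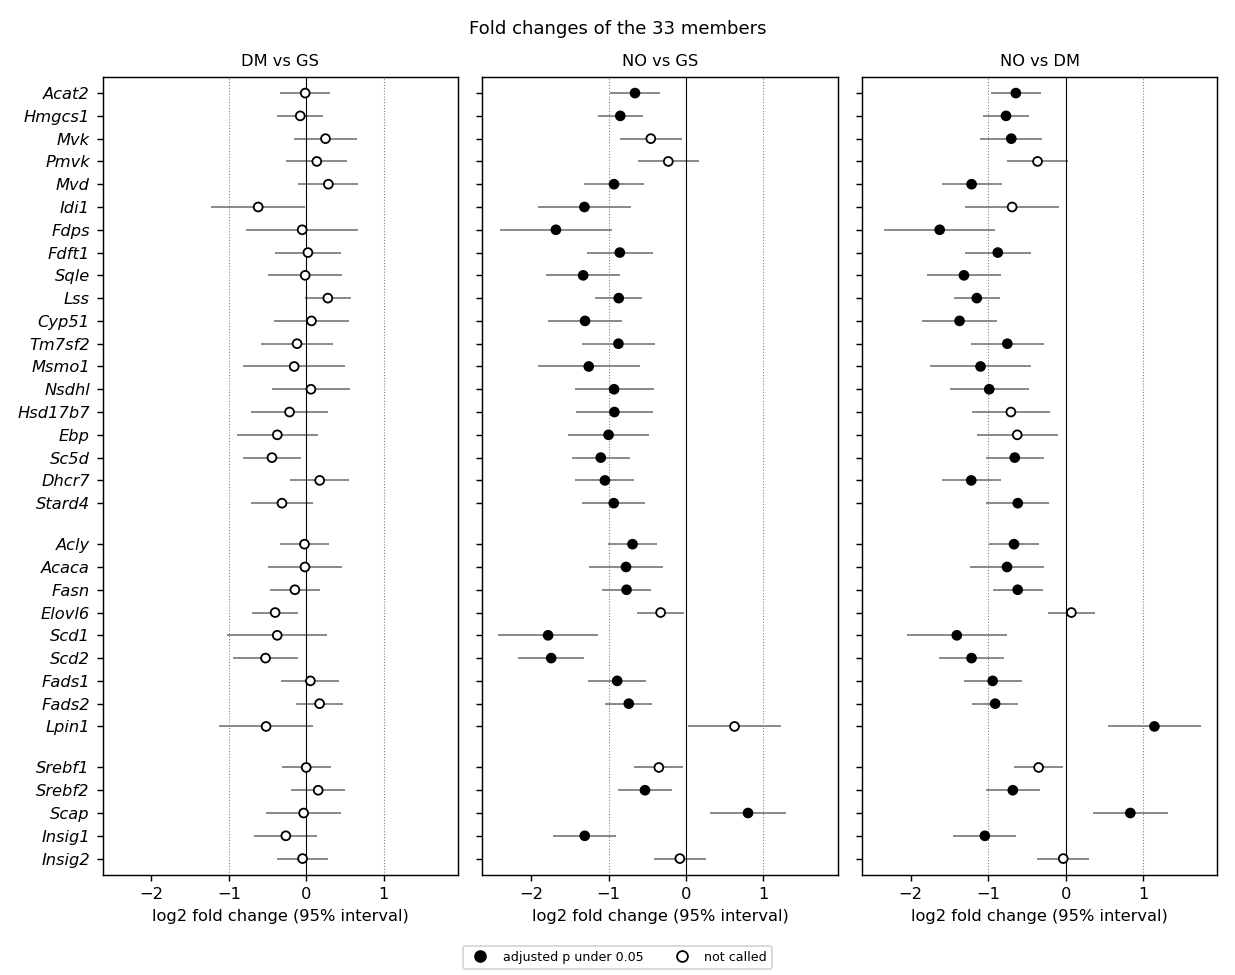
Log2 fold change of each member (horizontal axis) in the 3 comparisons, with 95% intervals from limma; filled circles passed an adjusted p of 0.05 and dotted lines mark 2-fold. No circle is filled for DM against GS, while 26 lower and 1 higher are filled for NO against GS and 24 lower and 2 higher for NO against DM.

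NO replicates differed in how low the members were. The median difference from GS over the sterol arm was -0.62, -1.26 and -1.10 in NO replicates 1, 2 and 3, against 0.04, -0.18 and 0.00 (-0.003) in DM replicates 1, 2 and 3. Over the fatty acid arm it was -0.59, -0.93 and -0.74 in NO and -0.19, -0.23 and -0.23 in DM. Within NO, 16 of the 19 sterol-arm genes were lowest in replicate 2 and 17 were highest in replicate 1. Within GS and DM, 15 and 14 of the 19 were also lowest in replicate 2, so this rank was not particular to NO. Highest in replicate 1 were 7 in GS and 8 in DM. NO replicate 2 was the sample with the lowest mESC marker sum and the highest endoderm marker sum, and the part of this in the result was not tested. Of the mESC markers, *Pou5f1* (4276, against 8983 to 15354 in the other samples), *Esrrb*, *Tdgf1*, *Zfp42* and *Dppa5a* were lowest in that sample. *Sox2*, *Nanog* and *Dppa4* were not the lowest there across all samples. Within NO, however, *Nanog* (7678, against 12693 and 12681 in NO replicates 1 and 3) and *Dppa4* (1293, against 1642 and 1647) were lowest in replicate 2. *Sox2* had 3122 there against 2566 and 2749 in NO replicates 1 and 3. Without NO replicate 2 the sterol arm kept 16 lower calls against GS and 9 against DM, and the fatty acid arm had 6 and 5, beside the higher call of *Lpin1* against DM. Without NO replicate 3 the sterol-arm counts were 13 and 7, and without NO replicate 1 they were 17 and 18. Without DM replicate 1 the sterol-arm count against DM was 8, and without DM replicate 2 it was 10. Called against DM in each of the 19 alternatives without a fold minimum were *Hmgcs1*, *Mvd*, *Fdps*, *Sqle*, *Lss*, *Cyp51*, *Dhcr7*, *Scd1*, *Scd2*, *Fads1*, *Fads2* and *Insig1*. The calls of *Acat2*, *Mvk*, *Fdft1*, *Tm7sf2*, *Msmo1*, *Nsdhl*, *Sc5d*, *Stard4*, *Acaca* and *Fasn* against DM were each lost without at least 1 single library, with adjusted p between 0.0505 and 0.156 and the direction kept. Least stable were *Tm7sf2*, called against DM in 5 of the 19 alternatives, *Stard4* and *Acaca* in 6 each and *Msmo1* in 9. With all samples present, equal totals ended the calls of *Tm7sf2*, *Stard4* and *Acaca* against DM, quantile normalisation those of *Stard4*, *Acaca*, *Msmo1* and *Fasn*, and vooma weights those of *Tm7sf2* and *Stard4*. Against GS the calls of *Tm7sf2*, *Msmo1*, *Nsdhl*, *Hsd17b7*, *Ebp* and *Acaca* were each lost without at least 1 single library (adjusted p between 0.0505 and 0.106). Of these, *Acaca* also lost its call against GS under equal totals and under quantile normalisation.

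Genes of neighbouring lipid routes were taken from 3 further lists. Their calls are given for the reported fit only and not for the alternatives, and several adjusted p lie close to the threshold. Of 15 related synthesis genes, 3 were lower and none higher in NO against DM, where 5.24% and 9.01% of tested genes were, with a median log2 fold change of -0.31. *Mid1ip1*, which aids acetyl-CoA carboxylase, had 87, 83 and 112 in DM and 51, 54 and 47 in NO (-0.87 ± 0.26, adjusted p = 0.044). Its GS values of 56, 34 and 45 overlapped those in NO (0.19 for NO against GS, adjusted p = 0.632). *Tecr*, a reductase of long-chain fatty acid elongation, and *Acsl3*, an acyl-CoA synthetase, had log2 fold changes of -0.82 (adjusted p = 0.0496) and -0.63 (adjusted p = 0.0454). Against GS, where 6.64% of tested genes were lower, *Acsl3* (-0.92), *Tmem97* (-0.77) and *Hsd17b12* (-0.45) were lower in NO. *Mid1ip1* was the only gene of this list called in DM against GS, where it was higher (1.06 ± 0.26, adjusted p = 0.0302), as were 4.37% of tested genes.

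Of 15 genes of sterol uptake, efflux and sensing, 14 were tested (*Ch25h* was under the minimum mean), and 3 were higher and none lower in NO against DM, beside 9.01% and 5.24% of all tested genes. *Abca1*, a cholesterol exporter, had 1624, 1696 and 1267 in DM and 2736, 3330 and 2894 in NO (0.97 ± 0.14, adjusted p = 0.00295). *Cyp27a1*, a sterol 27-hydroxylase, had 58, 71 and 82 in DM and 134, 299 and 186 in NO (1.48 ± 0.32, adjusted p = 0.0132). *Nr1h3*, which encodes the oxysterol receptor LXR alpha, had low counts of 33, 20 and 14 in DM and 37, 55 and 54 in NO (1.15 ± 0.35, adjusted p = 0.0467). Its GS values of 42, 34 and 46 overlapped those in NO (0.24 for NO against GS, adjusted p = 0.66). Against GS, where 13.4% of tested genes were higher and 6.64% lower, *Cyp27a1* (2.05), the exporter *Abcg1* (1.21) and *Abca1* (0.67) were higher and *Vldlr*, a lipoprotein receptor, was lower (-1.23). *Abcg1* (0.92, adjusted p = 0.0144) and the lysosomal lipase *Lipa* (0.74, adjusted p = 0.0343) were already higher in DM than in GS. The list median was -0.001 against DM, and 7 of the 14 genes had a positive log2 fold change.

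Of 14 genes of fatty acid oxidation and lipid storage, 13 were tested (*Cd36* was under the minimum mean), and 3 were higher and none lower in NO against DM (9.01% and 5.24% of all tested genes), with a list median of 0.37. *Plin2*, a coat protein of lipid droplets, had 892, 770 and 891 in DM and 1490, 4866 and 2451 in NO (1.62 ± 0.32, adjusted p = 0.00935). *Slc25a20*, the mitochondrial acylcarnitine carrier, had 1247, 1303 and 1402 in DM and 2257, 3245 and 3244 in NO (1.13 ± 0.16, adjusted p = 0.00286). *Cpt1a*, which forms acylcarnitine, was lower in DM than in GS (-0.81 ± 0.15, adjusted p = 0.00722) and higher in NO than in DM (0.53 ± 0.15, adjusted p = 0.0376). Against GS, *Plin2* (1.54), *Acadl* (1.10), *Slc25a20* (0.73) and *Acadvl* (0.64) were higher in NO, as were 13.4% of tested genes.

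**Figure D5:**
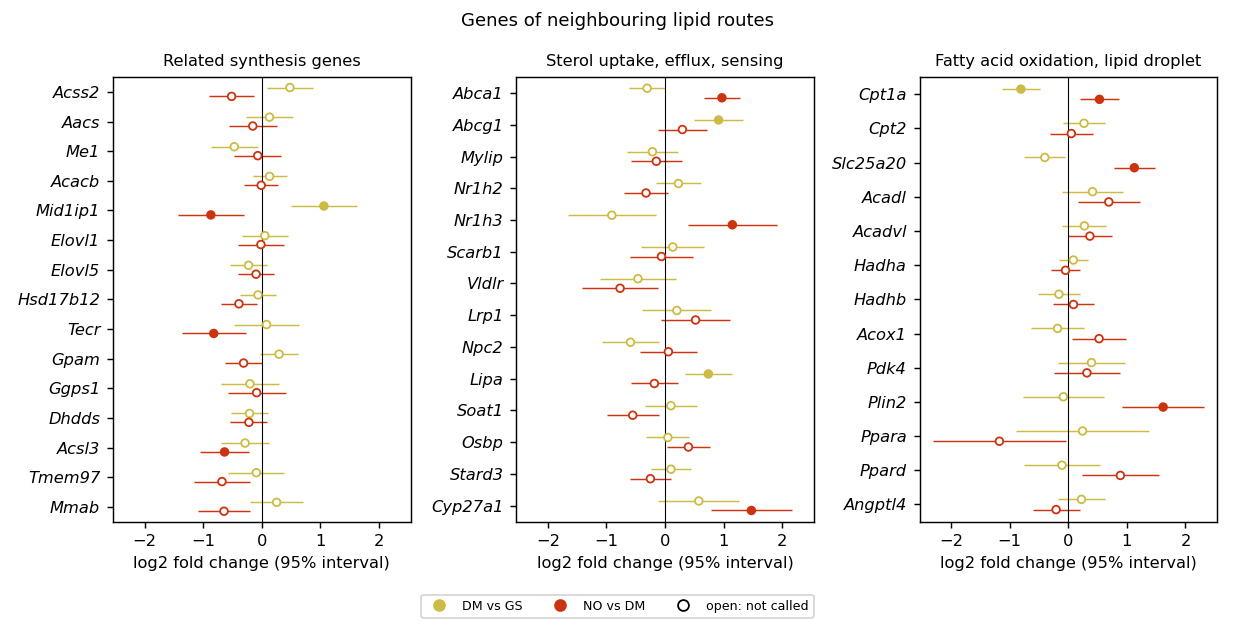
Log2 fold changes (horizontal axis, 95% intervals from limma) of the tested genes of 3 lists of neighbouring lipid routes, DM against GS and NO against DM; open circles did not pass an adjusted p of 0.05. Filled NO points lie left of 0 in the synthesis list (3 genes) and right of 0 in the other lists (3 genes each).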

How the data were processed

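Total RNA-Seq of 9 samples was analysed. Libraries were made by the authors after removal of ribosomal RNA and run on an Ion Torrent Proton; per the methods they trimmed reads with Reaper, aligned to GRCm38 (STAR 2.4.0a), counted exon reads per gene (featureCounts 1.4.5-p1) without ambiguous reads, and normalised with DESeq2. The strand setting and annotation release are not given in the sources used here. The deposited values are a score per gene, namely normalised counts rounded to whole numbers by the authors, so no count model was fitted. Depth was estimated from the spacing of low values. A column of sums over samples was not used.

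Linear models (limma 3.58.1, R 4.3.3) were fitted to log2(value + 1) for the 18156 genes with a mean above 5, with 3 media, 9 samples, trended empirical Bayes moderation and Benjamini-Hochberg adjustment over all tested genes. A gene was called at a two-sided adjusted p under 0.05. Adding 1 understates changes of low genes. The fit was tested on simulated data. Values with ± are log2 fold changes and standard errors, or means and SD where a mean is given.

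Members and lists were chosen with earlier results of these data known. Full values are given, per arm and comparison, for up to 5 called members with the smallest adjusted p and for all regulators, and up to 4 called genes per further list; other members' values were added after they were seen. Coordinates, exon overlaps and shared 50-base stretches used GENCODE M21 of GRCm38.

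Replicate numbers recur in each medium in the labels. Deviations of same-numbered samples from their group means correlated at 0.159, 0.167 and 0.296 between NO and DM. Between DM and GS the values were -0.178, 0.022 and -0.232, and between NO and GS -0.046, 0.05 and -0.106. Differently numbered samples were not compared and no pairing is stated, so these values do not establish one. The reported fit had medium as its only factor and ignored the replicate numbers, which entered only in the replicate block. Alternatives were pseudocounts of 0.5 and 5, no minimum mean or a minimum of 50, fits of the 6 samples compared, the replicate block, moderation without a trend, vooma weights, equal totals, quantile normalisation, a 2-fold minimum and leaving out each sample.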

Additional observations from a re-analysis of the deposited data

How the results depend on the processing

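No direction of a called member reversed in any alternative, and all 19 sterol-arm genes kept a negative log2 fold change in both NO comparisons. A 2-fold minimum left 7 sterol-arm, 2 fatty acid and 1 regulator calls against GS and 7, 3 and 1 against DM. Moderation without a trend left 7 sterol-arm calls against DM and 1 regulator call in each NO comparison. With only the 6 samples compared, NO against DM had 7 sterol-arm and 4 fatty acid calls, and DM against GS had 2 fatty acid calls, *Scd2* and *Lpin1*.

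Leaving out 1 replicate gave 7 to 18 sterol-arm calls against DM (7 without NO replicate 3, 8 without DM replicate 1, 9 without NO replicate 2) and 13 to 18 against GS. Fatty acid calls ranged from 5 to 8 against DM (5 without DM replicate 1 or 3), from 6 to 8 against GS and from 0 to 2 for DM against GS (2 without NO replicate 2, 1 without NO replicate 1). Regulator calls ranged from 1 to 3 in both NO comparisons, with 1 against DM without DM replicate 2, DM replicate 3 or NO replicate 3 and 1 against GS without GS replicate 1, GS replicate 2 or NO replicate 3. Each of these fits had 1 sample fewer, and the cause of the changes in count was not tested.

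The replicate block used numbers that are not stated to mark shared cultures. With it, *Srebf2* lost its call against GS (adjusted p = 0.0541) and 2 regulator calls were left. Against DM only *Tm7sf2* changed (0.0568, 14 sterol-arm calls), and no other member call changed. Scaling to equal totals moved the share of higher calls over all genes from 66.9% to 81.9% for NO against GS and from 63.2% to 77.1% for NO against DM, while 17 and 13 sterol-arm calls were left; it ended the calls of *Srebf2* against GS and *Acaca* in both. Quantile normalisation moved the median of all genes by about 0.1 (to -0.115 against GS and -0.084 against DM), with 17 and 13 sterol-arm calls, and ended the same calls of *Srebf2* and *Acaca*. The precision rests on 3 replicates per medium.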
